A study of Mus musculus with 6 samples.

Results

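The 10 genes described here encode cytokines that macrophages release or make on contact with bacteria: the inflammatory Tnf, Il1a, Il1b, Il6 and Il12b, the interleukin 1 antagonist Il1rn, the regulatory Il10 and Il27, the lymphocyte growth factor Il15, and the type I interferon Ifnb1. They were taken by gene symbol out of 55254 genes in a table of read counts, and every transcript listed for them was read. The table held 31 transcripts of the 10 genes, counted over 35 regions. Of these, 26 transcripts had a read in at least 1 library and 5 had none, and because transcripts of 1 gene share their ends, the 26 held only 20 different sets of counts. Each gene was followed by the transcript with the highest mean normalized count, and its other transcripts are given where their counts differ.

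RNA was sequenced from bone marrow-derived macrophages (BMDMs) of C57BL/6J mice aged 6 to 8 weeks. There were 3 control cultures of the genotype hnRNPDfl/fl and 3 M-Δx3,4 cultures of the genotype LysCre+ hnRNPDfl/fl, so both groups carried the same floxed alleles and differed by the Cre transgene, which is driven from the lysozyme M locus and is active in macrophages and neutrophils. Cre removes exons 3 and 4 of hnRNPD, the gene of AUF1. All cultures were differentiated for 10 days in medium with L929-conditioned L-medium and then received 100 ng/ml of the endotoxin LPS for 4 hrs, so the values are levels under LPS and show no induction. Nothing in the labels says whether the 3 cultures of a group came from different mice, and the p-values then measure only the spread between these libraries. Libraries were made from the 3′ ends of mRNAs, and their counts summed over transcripts ran from 5852374 to 9008878. That sum holds reads at shared ends more than once, and with 1 transcript per gene the counts ran from 2503125 to 3846215.

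LPS binds TLR4 on macrophages, and the signal switches on the genes of TNF, interleukin 1, interleukin 6 and interferon beta within hours. The mRNAs of many of these cytokines are short-lived. Copies of AUUUA in the 3′ untranslated region (3′ UTR), called AU-rich elements, recruit proteins that hasten their decay, such as tristetraprolin (Zfp36), or that hold them in place, such as HuR (Elavl1). AUF1 is a further protein of this kind. IL-1 receptor antagonist, IL-10 and IL-27 restrain the same response, the first by occupying the interleukin 1 receptor.

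The letters of these elements were read on the mRNA strand of the GENCODE transcripts of GRCm38, in which U is written T. The motif searched was ATTTA, on the mRNA strand only, with overlapping copies counted. In each of the 10 transcripts the counted region covered the whole annotated 3′ UTR, and most counted regions ran on beyond the annotated end over bases that were not searched. Shown for each gene that has the motif is the 30-base stretch of the 3′ UTR in which it is densest, since AU-rich letters of this kind are the ones that AUF1 and related proteins are known for. Each starts at a copy, and capitals mark ATTTA.
Tnf: ATTTAttATTTATTTAttATTTATTTAttt
Il12b: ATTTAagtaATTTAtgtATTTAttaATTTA
Il1b: ATTTATTTAtgtATTTAttgattggttgat
Il27: ATTTAtttcttggatATTTATTTAttttta
Il1a: ATTTAtaaatatATTTAtgataattatatt
Il6: ATTTAttgataATTTAaataagtaaacttt
Ifnb1: ATTTAtaATTTAaattattttctacttttt
Il10: ATTTAttacctctgatacctcagttcccat

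The stretch of Tnf lies on the minus strand at chr17:35199676-35199705 and begins 440 bases after the stop codon. It holds 5 copies that overlap or nearly touch, the most of the 8 stretches. The stretch of Il12b is at chr11:44413473-44413502 on the plus strand and has 4 copies. Those of Il1b (chr2:129364795-129364824, minus strand) and Il27 (chr7:126589084-126589113, minus strand) have 3 each. Those of Il1a (chr2:129300096-129300125, minus), Il6 (chr5:30019691-30019720, plus) and Ifnb1 (chr4:88522068-88522097, minus) have 2 each, and that of Il10 (chr1:131024397-131024426, plus) has 1. All 8 are exonic and within the 3′ UTR.

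Over the whole 3′ UTR, Il6 had 10 copies, Tnf 8, Il10 and Il12b 6 each, Il27 5, Il1b and Ifnb1 4 each and Il1a 3. The other coding transcripts of Il6 have shorter 3′ UTRs, with 6 copies (ENSMUST00000026845), 4 (ENSMUST00000199765) and 0 (ENSMUST00000195978). Il1rn had none in 1864 bases, and the transcript that stood for Il15 had none in 508 bases, whereas the coding transcript of Il15, ENSMUST00000034148, had 1 in 277. Of the genes tested, 11852 of 11875 (99.8%) could be matched to a sequence. Among them 57% had at least 1 copy in the counted region, 30.7% at least 3 and 13.9% at least 6. Of the 9778 with an annotated 3′ UTR, 69.1% had at least 1 copy in it, 37.2% at least 3 and 16.8% at least 6. Per 100 counted bases the cytokines together held 0.551 copies and all genes together 0.172. The longer motif TTATTTATT was present in Tnf, with 5 overlapping copies, and in Il27, with 2. At least 1 copy was in the counted region of 6.19% of all genes and in 7.5% of the annotated 3′ UTRs. In the map of the 3′ UTRs all 3 copies of Il1a and all 4 of Il1b lie close together. The Il6 transcript drawn, ENSMUST00000199183, has copies from base 141 to base 1656 after the stop codon. Only the 6 copies from base 1378 to base 1656 lie in the 3′ UTR of ENSMUST00000026845. The region of that shorter transcript held 97.5% to 100% as many reads in each library, so few reads came from the stretch with the earlier copies. Il12b has 4 of its 6 copies between bases 237 and 266, and Il10 has 5 of its 6 between bases 129 and 283. A match to these letters is a description of the sequence and does not show that a protein binds there.

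**Figure D1:**
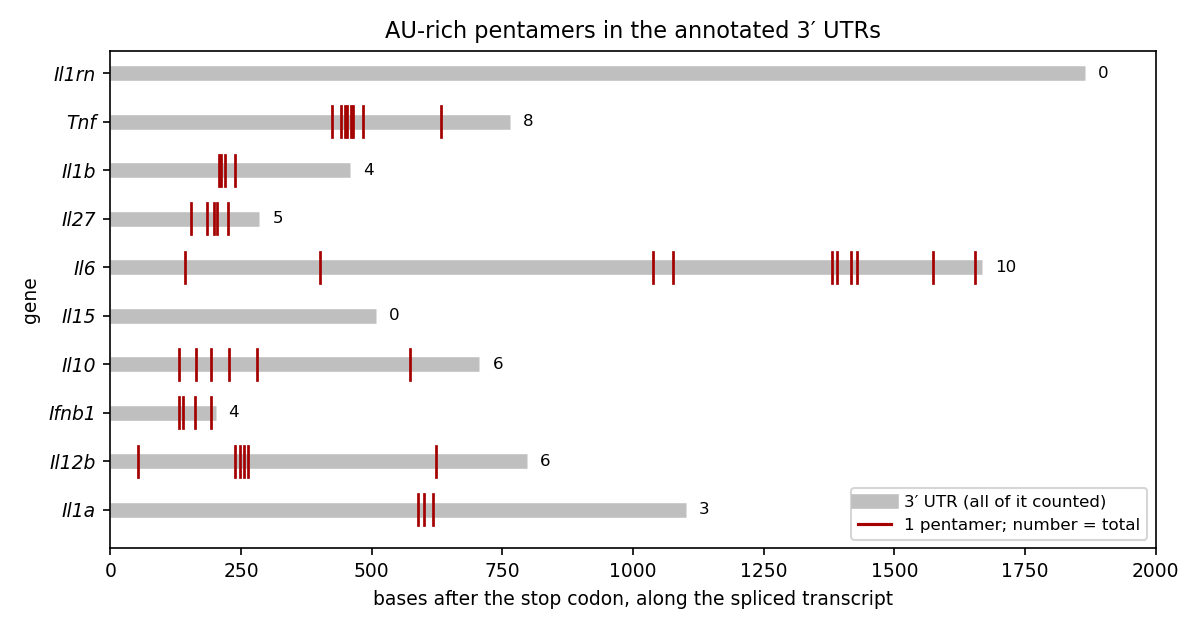
Each grey bar is the annotated 3′ UTR of 1 cytokine transcript, drawn to scale in bases after the stop codon along the spliced mRNA, and each red line is 1 copy of the AU-rich pentamer. The number at the end of a bar is its total, from 0 in Il1rn and Il15 to 10 in Il6.

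The 10 cytokines differed widely in level under LPS. In the TPM values of the authors, which divide by the length of the counted region, Il1rn was highest with a mean of 383 over the 6 libraries, followed by Tnf with 248, Il1b with 80.7 and Il27 with 38.4. Il15 (17.7), Ifnb1 (13), Il6 (7.95) and Il10 (2.92) came next, and Il12b (0.275) and Il1a (0.206) were last. Reads from a 3′ end library fall near the end of the mRNA whatever its length, so a TPM over a long region such as that of Il6 is lower for the same number of reads than over a short one such as that of Ifnb1.

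Neighbours in this order whose 6 libraries did not overlap were Tnf above Il1b, Il27 above Il15, Il6 above Il10, and Il10 above Il12b. Il1rn and Tnf overlapped, as did Il1b and Il27, Il15 and Ifnb1, Ifnb1 and Il6, and Il12b and Il1a. Among 18430 genes with a TPM, Il1rn and Tnf were at the 98.9 and 98.4 percentile of mean level, whereas Il12b and Il1a were at the 40.7 and 37.1 percentile.

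The deletion itself was checked first. The region counted for the p37 transcript of Hnrnpd (ENSMUST00000072750) had normalized counts of 177.8, 104.2 and 69.6 in control BMDMs, against 52.8, 12.6 and 16.0 in M-Δx3,4 BMDMs. Every M-Δx3,4 library was below every control library, and the log2 fold change was -2.11 (standard error 0.54). The p45 transcript (ENSMUST00000172361) had the highest mean count of the gene. Its region of 5678 bases, against 611 for p37, contains part of that of p37, and the counts are not divided by length. The paper reports the p45 RNA as poorly expressed in macrophages, so this mean does not make p45 the main isoform. The p45 region had 335.9, 185.9 and 104.4 against 137.9, 124.3 and 160.5, with overlapping groups and a log2 fold change of -0.57 (standard error 0.41). These reads lie at the 3′ end and say nothing of exons 3 and 4 themselves.

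Between M-Δx3,4 and control BMDMs no cytokine passed the threshold used here, a log2 fold change of 1 or more in size together with an unadjusted edgeR p under 0.05. The study set its limit on a p combined over several methods, which is another quantity. Of all 11875 genes, each by 1 transcript, 3.07% passed it, and of all transcripts tested 3.3%. With no minimum fold change 1 of the 10 had an unadjusted p under 0.05 (Il27), as did 1 of the 23 cytokine transcripts tested, where 3.98% of all genes and 4.13% of all transcripts did. The adjusted p was 0.984 or higher for each of the 23, and 0 genes of all reached an adjusted p of 0.05 by edgeR's quasi-likelihood test. The log2 fold change was above 0 in 4 cytokines and below 0 in 6, with a median of -0.11 against -0.01 over all genes. In all 10 the libraries of the 2 groups overlapped, as they did in each of their transcripts, whereas they did not overlap in 8.44% of all genes and 8.88% of all transcripts. An exact permutation test of 3 libraries against 3 cannot give a p under 0.1, and among the cytokines it gave none under 0.2.

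**Figure D2:**
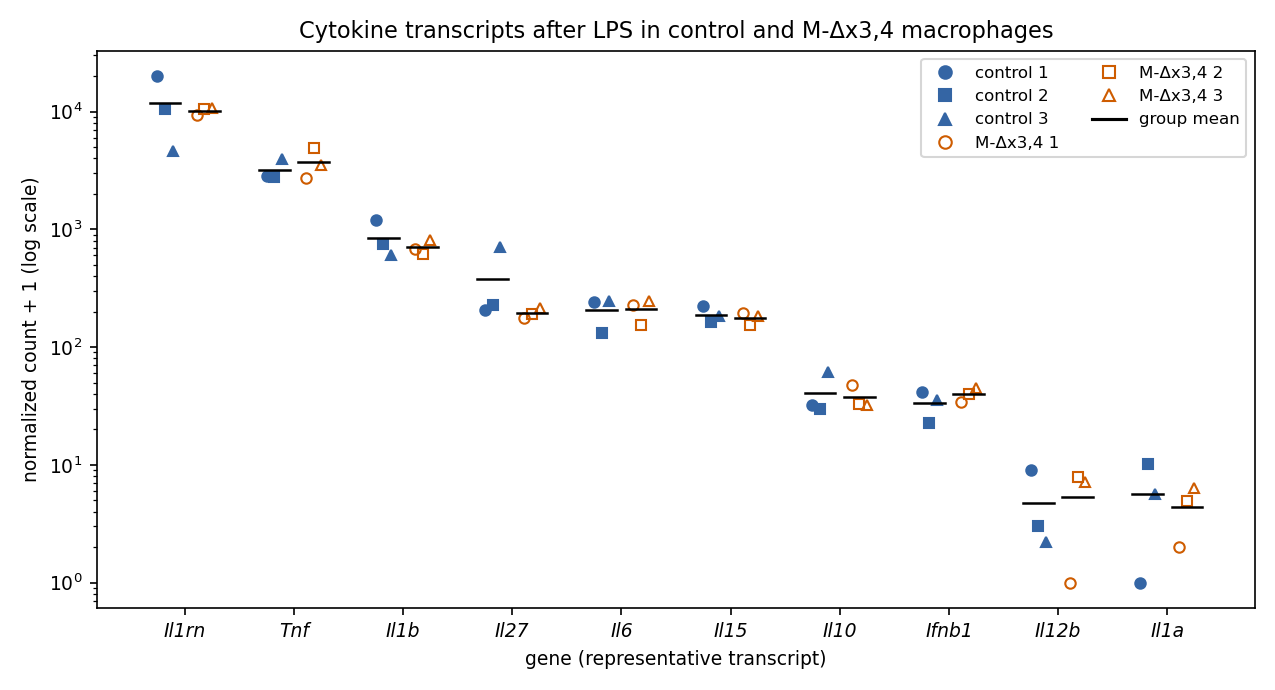
Normalized counts of each cytokine's transcript, plus 1, on a log axis. Filled blue points are the 3 control and open orange points the 3 M-Δx3,4 libraries, with the shape giving the replicate and black bars the group means; the groups overlap in all 10, and Il1rn and Il27 have the widest spread among controls of the cytokines above 50 counts.

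Tnf encodes tumour necrosis factor, the early inflammatory cytokine of activated macrophages. Its transcript ENSMUST00000025263 was counted at chr17:35199132-35200144 on the minus strand of mm10, over the 3′ UTR in the last exon. Its normalized counts were 2844.1, 2792.3 and 3964.3 in control BMDMs, and the M-Δx3,4 cultures had 2732.0, 4885.2 and 3523.7. The highest value was that of M-Δx3,4 replicate 2 and the lowest that of M-Δx3,4 replicate 1, so the control libraries lay within the range of the mutant ones. The means were 3200.2 ± 662.2 (SD, n = 3) and 3713.7 ± 1089.1 (SD, n = 3). The log2 fold change was 0.21 (standard error 0.31, 95% interval -0.45 to 0.88), which is a fold between 0.732 and 1.84. The second Tnf transcript had the same counts in every library.

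Il1b and Il1a encode the agonists of the interleukin 1 receptor. Il1b, on the minus strand at chr2:129364321-129365028, had 1198.3, 750.9 and 602.1 normalized counts in control and 678.8, 616.6 and 809.3 in M-Δx3,4 BMDMs. Control replicate 1 was the highest of the 6 libraries, and control replicate 3 the lowest. The means were 850.5 ± 310.3 and 701.6 ± 98.3 (SD, n = 3 each), and the log2 fold change was -0.28 (standard error 0.33, 95% interval -0.98 to 0.43). A second Il1b transcript, ENSMUST00000141979, was counted over 249 bases that partly overlap the first region and had 4.61% to 12.9% as many reads, with overlapping groups.

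Il1a was near the limit of detection. It had 0, 9 and 4 reads in the control and 1, 4 and 7 in the M-Δx3,4 libraries. The log2 fold change of -0.42 had an interval from -2.84 to 2.0, so neither a fall nor a rise of several fold could be seen at this depth. The 0 in control replicate 1 still allows up to 3 reads.

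Il1rn, the antagonist that competes with both, was the most abundant of the 10. Its transcript ENSMUST00000114487, on the plus strand at chr2:24349631-24351743, had 20041.1, 10485.7 and 4636.0 normalized counts in control and 9303.3, 10559.9 and 10656.8 in M-Δx3,4 BMDMs. The control libraries differed by 4.32 times from lowest to highest and the M-Δx3,4 libraries by 1.15 times, with all 3 M-Δx3,4 libraries between control replicates 1 and 3. The means were 11720.9 ± 7776.5 and 10173.3 ± 755.0 (SD, n = 3 each), for a log2 difference of -0.20 (standard error 0.40, 95% interval -1.06 to 0.65). Counting error at this depth was about 0.976% of the control and 0.935% of the M-Δx3,4 mean, against a spread between libraries of 66.3% and 7.42%. Without control replicate 1 the log2 fold change was 0.43, so its sign rests on that library.

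Nearly all Il1rn reads fell in the middle of its 2113-base region. The region of the shorter transcript ENSMUST00000114482 covers the first 1555 bases and held 99.6% to 99.9% of the reads in each library, and the first 426 bases held 0 to 3 reads. Between the groups this share gave p = 1.0 in the exact permutation test, two-sided. Il6 showed a like concentration. A 378-base stretch inside its 1917-base region held 94.4% to 100% of the reads of each library, with p = 0.4 between the groups (exact permutation test, two-sided).

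Il6 encodes interleukin 6, the driver of the acute phase response. Its transcript ENSMUST00000199183, on the plus strand at chr5:30018314-30020230, had 240.6, 130.8 and 247.1 normalized counts in control and 228.9, 153.4 and 245.3 in M-Δx3,4 BMDMs. Replicate 2 was the lowest of each group. The means of 206.2 ± 65.4 and 209.2 ± 49.0 (SD, n = 3 each) were the closest to each other of the 10 genes, for a log2 fold change of 0.02 (standard error 0.36, 95% interval -0.74 to 0.79). This log2 fold change was the smallest in size of the 10. By this transcript Il6 also had the most ATTTA copies, 10 against 8 in Tnf. By ENSMUST00000026845, whose shorter region held 97.5% to 100% as many reads in each library, Il6 had 6, fewer than Tnf.

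Il12b encodes the subunit that IL-12 and IL-23 share. It was counted at chr11:44413237-44414282 on the plus strand and had 7, 2 and 1 reads in the control and 0, 7 and 8 in the M-Δx3,4 libraries. The log2 fold change of 0.21 had an interval from -2.27 to 2.68, and no difference was detectable at this depth. The 0 in M-Δx3,4 replicate 1 allows up to 3 reads.

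The study placed its qRT-PCR primers for Tnf, Il6 and Il12b in other parts of these mRNAs. The antisense primers end 1228, 1921 and 1694 bases before the annotated end of the transcript that stood for the gene. For Il6 this was ENSMUST00000199183, of 2343 bases. The shorter ENSMUST00000026845 has 1141 bases in all, so on it the distance is smaller. None of the 6 primers lies in the counted region, so the counts and such assays read different stretches of the same RNAs.

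Il10 encodes interleukin 10, which dampens macrophage activation. At chr1:131024269-131025223 on the plus strand it had 31.4, 28.6 and 60.3 normalized counts in control and 47.0, 32 and 31.3 in M-Δx3,4 BMDMs. Only control replicate 3 was above 50. The means were 40.1 ± 17.6 and 36.8 ± 8.8 (SD, n = 3 each), and the log2 fold change was -0.12 (standard error 0.43, 95% interval -1.05 to 0.80). Without control replicate 3 it was 0.30.

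Il27 encodes the subunit of interleukin 27 that pairs with EBI3. Its transcript ENSMUST00000058429 was counted on the minus strand at chr7:126588761-126589294. Its normalized counts were 204.6, 224.8 and 708.9 in control BMDMs, and the M-Δx3,4 cultures had 177.0, 188.4 and 213.2. Control replicate 3 was more than 3 times as high as any other library, and the other 2 controls were within or just above the range of the M-Δx3,4 libraries. The means were 379.4 ± 285.5 and 192.9 ± 18.5 (SD, n = 3 each).

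The log2 fold change of Il27 was -0.97 (standard error 0.44, 95% interval -1.91 to -0.04), the largest in size of the 10. The unadjusted p was 0.0416 in edgeR's quasi-likelihood test and the adjusted p 0.984, and the exact permutation test, two-sided, gave p = 0.2. Without control replicate 3 the log2 fold change was -0.14. Without control replicate 1 or control replicate 2 it was -1.27 or -1.24 and passed the threshold. The unadjusted p was above 0.05 in the fits without each M-Δx3,4 library, from 0.0663 to 0.108.

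Il15 encodes interleukin 15, a growth factor of NK and memory T cells. The transcript with the highest mean, ENSMUST00000211565, is annotated as a target of nonsense-mediated decay, but all except 0 to 5 of its reads came from the region chr8:82331490-82332024 on the minus strand, which it shares with the coding transcripts. It had 220.8, 161.4 and 181.0 normalized counts in control and 194.7, 152.5 and 183.4 in M-Δx3,4 BMDMs. This was the narrowest spread of the 10 among controls. The means were 187.7 ± 30.3 and 176.8 ± 21.9 (SD, n = 3 each), for a log2 fold change of -0.09 (standard error 0.33, 95% interval -0.78 to 0.61).

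Ifnb1 encodes interferon beta, which acts back on the macrophage through its own receptor. Its region, chr4:88522025-88522225 on the minus strand, was the only one of the 10 that stopped at the annotated end. It had 40.7, 21.5 and 34.8 normalized counts in control and 33.3, 38.8 and 44.3 in M-Δx3,4 BMDMs, with the lowest value in control replicate 2 and the highest in M-Δx3,4 replicate 3. The means were 32.3 ± 9.9 and 38.8 ± 5.5 (SD, n = 3 each), and the log2 fold change was 0.27 (standard error 0.41, 95% interval -0.61 to 1.15).

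For Tnf, Il1b, Il6 and Il15, 4 of the 10, the 95% interval lay wholly between -1 and 1 on the log2 scale. For the other 6 it reached beyond -1 or 1.

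**Figure D3:**
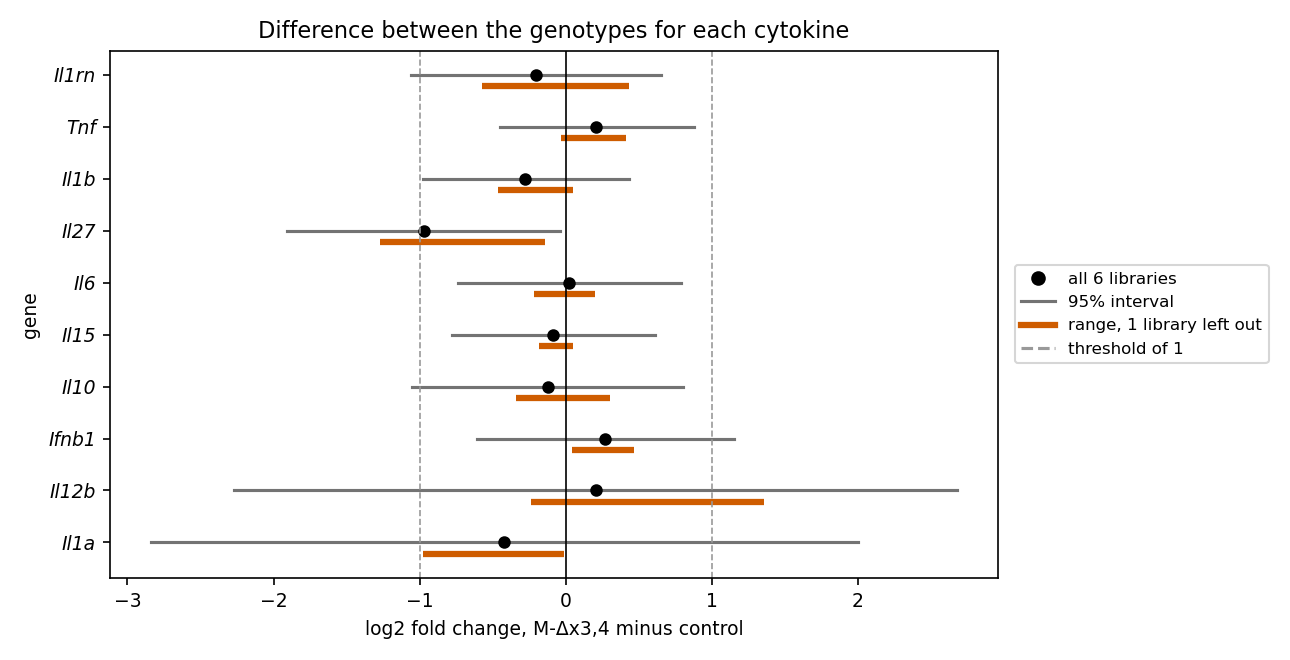
Log2 fold change of each cytokine, M-Δx3,4 minus control, from edgeR's quasi-likelihood fit. Black points are the values with all 6 libraries, grey lines their 95% intervals and orange lines the range when 1 library is left out; the Il27 point sits at -0.97, next to the dashed threshold, and its orange line reaches from -1.27 to -0.14.

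The libraries of 1 group differed from each other unevenly from gene to gene. Over the 4723 genes whose mean exceeded 50 normalized counts, the median range of log2(normalized count + 1) was 0.91 among the control and 0.59 among the M-Δx3,4 libraries. Il1rn spanned 2.11 among controls, at the 93.1 percentile of these genes, and Il27 1.79, at the 88.0 percentile, whereas among M-Δx3,4 libraries they spanned 0.20 and 0.27. The pair moved in opposite ways. Control replicate 1 exceeded control replicate 3 by 2.11 in Il1rn and fell below it by 1.79 in Il27, where the median of all these genes was 0.05. Il1b followed Il1rn with a difference of 0.99, while Il6 (-0.04) and Il15 (0.29) differed little and Tnf was -0.48.

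**Figure D4:**
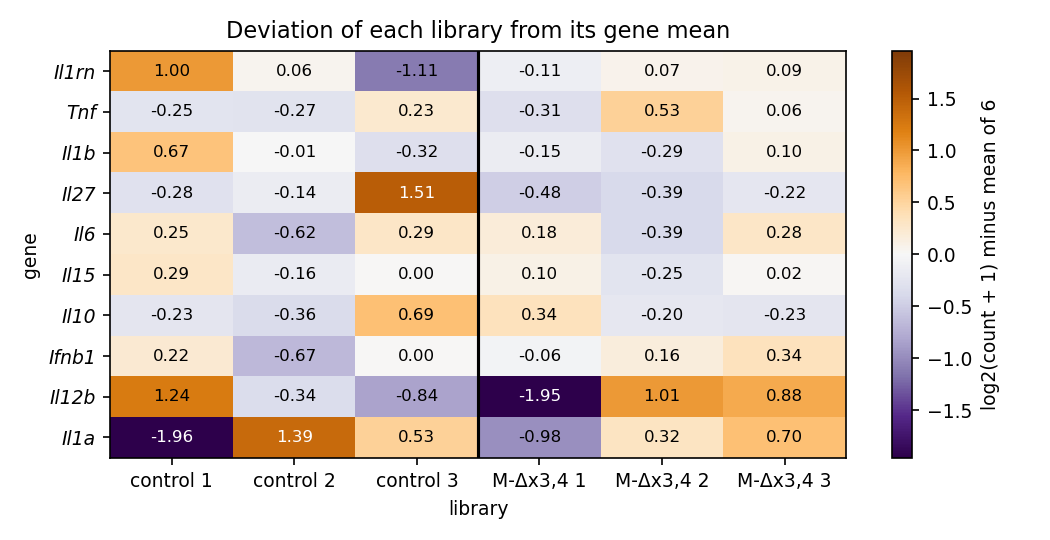
Deviation of each library from the mean of the 6 libraries, on the scale log2(normalized count + 1), for each cytokine. Orange is above and purple below the mean; control 1 and control 3 differ in opposite directions in Il1rn (1.00 and -1.11) and Il27 (-0.28 and 1.51), and Il12b and Il1a vary most, at 0 to 9 reads.

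Pearson's r over the 6 libraries, which share their sequencing depth and normalization within each library, was 0.84 for Il1b with Il1rn, 0.78 for Il6 with Il15 and -0.78 for Il1rn with Il27. These are descriptions of 6 points. Of the 4722 other genes with a mean above 50, the pattern most like that of Il1rn was that of Fyb (r = 0.996) and then Fnta (0.987). For Il27 it was Cebpd (0.998) and Get4 (0.989). Cebpd had 294.1, 315.7 and 698.4 normalized counts in control and 281.7, 286.5 and 318.7 in M-Δx3,4 BMDMs, so it shared the single high value of control replicate 3. The closest to Il1b were Procr (0.977) and the p45 region of Hnrnpd (0.973), to Tnf Zfp143 (0.957) and Lipa (0.943), to Il6 Ssu72 (0.982) and Fam241a (0.979), and to Il15 Igf2r (0.989) and Clec4e (0.988). With 6 libraries and 4722 genes to choose from, values this high also occur at the opposite sign, down to -0.989 for Il1rn and -0.997 for Il27.

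The balance between agonists and antagonists was compared as log2 ratios within each library, for 6 pairs. Il1rn exceeded Il1b by 3.6 ± 0.59 in control and 3.86 ± 0.20 in M-Δx3,4 BMDMs (SD, n = 3 each; exact permutation test, two-sided, p = 0.7). The antagonist was the more abundant by counts in every library, with a ratio from 2.94 in control replicate 3 to 4.10 in M-Δx3,4 replicate 2. The ratio of Il10 to Tnf was -6.34 ± 0.29 in control and -6.60 ± 0.70 in M-Δx3,4 BMDMs (SD, n = 3 each; exact permutation test, two-sided, p = 0.5). The ratio of Il27 to its partner Ebi3 was -0.30 ± 0.96 in control and -1.37 ± 0.51 in M-Δx3,4 BMDMs (SD, n = 3 each; exact permutation test, two-sided, p = 0.2). The differences of Il10 to Il6 (-0.12), Il6 to Tnf (-0.14) and Il1a to Il1b (0.26) were smaller than the SD of each group. After Benjamini-Hochberg adjustment over the 6 pairs no p was under 0.96, and the groups overlapped in each pair.

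Genes that act with the cytokines were read as lists, each gene by its transcript with the highest mean. Of 9 genes of subunit partners and cytokine release, 7 were tested, of which 1 was lower and none higher at an unadjusted p under 0.05, where 3.98% of all genes had such a p, with a median log2 fold change of -0.13. The lower gene was Il18bp, the secreted trap of interleukin 18. It had 89.5, 111.4 and 95.1 normalized counts in control and 71.4, 47.6 and 49.7 in M-Δx3,4 BMDMs, and its log2 fold change was -0.81 (standard error 0.37). The groups of Il18bp did not overlap, as in 8.44% of all genes. Its unadjusted p was above 0.05 without control replicate 2, M-Δx3,4 replicate 2 or M-Δx3,4 replicate 3, with log2 fold changes from -1.02 to -0.71 over the 6 libraries left out. Adam17, the protease that sheds TNF, had a log2 fold change of 0.36, Ebi3 0.34, Casp1, which cleaves pro-interleukin 1β, -0.03, and Il18 -0.31. Il12a, the partner of Il12b in IL-12, had at most 4 reads in a library, and Il23a, its partner in IL-23, had none.

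Of 17 receptor genes, 12 were tested and none had an unadjusted p under 0.05, where 3.98% of all genes did. Their median log2 fold change was -0.28. Tnfrsf1b, the second TNF receptor, had 2132.5 ± 496.1 and 1763.1 ± 249.4 normalized counts in control and M-Δx3,4 BMDMs, and Tnfrsf1a, the first, 1084.7 ± 112.2 and 796.3 ± 172.7 (SD, n = 3 each). Il10ra and Il2rg, a chain of the IL-15 receptor, had log2 fold changes of -0.42 and -0.43. The groups did not overlap in Tnfrsf1a and Il2rg, 2 of the 12, where they did not in 8.44% of all genes, with intervals of -1.09 to 0.20 and -1.08 to 0.23. The chains Il1r1 and Il2rb had no read in any library, and Il1rap, Il12rb2 and Il27ra had too few to be tested.

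Of 8 targets of interferon beta all were tested. At an unadjusted p under 0.05 Rsad2 was higher and Oasl1 lower, 2 of 8 where 3.98% of all genes had such a p, and the median log2 fold change was 0.31. Rsad2, which encodes the antiviral protein viperin, had 12769.9, 8425.9 and 8310.2 normalized counts in control and 9002.0, 17923.2 and 26179.3 in M-Δx3,4 BMDMs. This was a log2 fold change of 0.85 (standard error 0.36). M-Δx3,4 replicate 1 lay within the control range, and without M-Δx3,4 replicate 3 the log2 fold change was 0.45. The unadjusted p was above 0.05 without that library, without M-Δx3,4 replicate 2 or without control replicate 2.

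Oasl1 had 1715.5, 2197.7 and 4154.5 normalized counts in control and 1773.4, 1398.3 and 1457.3 in M-Δx3,4 BMDMs. Its log2 fold change was -0.80 (standard error 0.35). It shared with Il27 the high value of control replicate 3, and without that library the log2 fold change was -0.33. The unadjusted p was also above 0.05 without each M-Δx3,4 library. The ubiquitin-like Isg15 and the interferon-induced Ifit3 and Ifit1 had log2 fold changes of 0.33, 0.28 and 0.38, and Ifit2 and Mx1 0.39 and -0.14. Irf7, a transcription factor of the interferon response, had 1914.3, 2436.7 and 2480.4 normalized counts in control and 1722.5, 1369.1 and 1791.3 in M-Δx3,4 BMDMs. Its groups did not overlap, as in 8.44% of all genes, with a log2 fold change of -0.48 and a 95% interval of -1.11 to 0.14. Of 6 targets of IL-10 all were tested and none had an unadjusted p under 0.05, where 3.98% of all genes did, with a median of -0.23. Socs3, the inhibitor of cytokine receptor signalling, had a log2 fold change of -0.57 (95% interval -1.28 to 0.13), with groups that did not overlap, as in 8.44% of all genes. Those of Il4ra, Bcl3 and Etv3 were -0.21, -0.43 and 0.20.

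Of 13 genes of the path from LPS to cytokine transcription all were tested, and at an unadjusted p under 0.05 1 was higher and none lower, where 3.98% of all genes had such a p. In sign 5 were higher and 8 lower, with a median of -0.24. Rel, the NF-κB subunit c-Rel, had 133.7, 54.1 and 49.9 normalized counts in control and 183.9, 101.0 and 201.7 in M-Δx3,4 BMDMs, and its log2 fold change was 1.04 (standard error 0.44), past the threshold. The groups overlapped through control replicate 1 and M-Δx3,4 replicate 2, and the unadjusted p was above 0.05 without control replicate 2 or 3 or M-Δx3,4 replicate 1 or 3, while over the 6 libraries left out the log2 fold change ran from 0.80 to 1.64. The adaptor Myd88, the LPS receptor chain Cd14 and the NF-κB genes Nfkb1 and Rela had log2 fold changes of -0.27, -0.33, -0.23 and -0.44.

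Of 11 RNA-binding proteins of cytokine mRNAs all were tested, and at an unadjusted p under 0.05 1 was higher and none lower, where 3.98% of all genes had such a p. In sign 6 were higher and 5 lower, with a median of 0.08. Elavl1, the gene of HuR, had 163.9, 165.5 and 243.6 normalized counts in control and 330.6, 336.0 and 298.8 in M-Δx3,4 BMDMs, and its log2 fold change was 0.75 (standard error 0.32), while the groups did not overlap. Its unadjusted p was above 0.05 without any 1 of the libraries other than control replicate 3, with log2 fold changes from 0.66 to 0.98. Zfp36 (tristetraprolin), Zc3h12a (the RNase regnase) and Rc3h2 (a roquin) had log2 fold changes of -0.37, -0.22 and 0.08, and Hnrnpd, here by its p45 transcript ENSMUST00000172361, -0.57. By its p37 transcript Hnrnpd had -2.11. The groups did not overlap in 2 further genes of low count, Khsrp (-0.74, 95% interval -1.75 to 0.27), which promotes decay, and Zfp36l1 (0.82, 95% interval -0.28 to 1.92), a relative of tristetraprolin. Over all genes they did not overlap in 8.44%. For each of the 5 list genes that had an unadjusted p under 0.05 the adjusted p was 0.984 in edgeR's quasi-likelihood test.

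**Figure D5:**
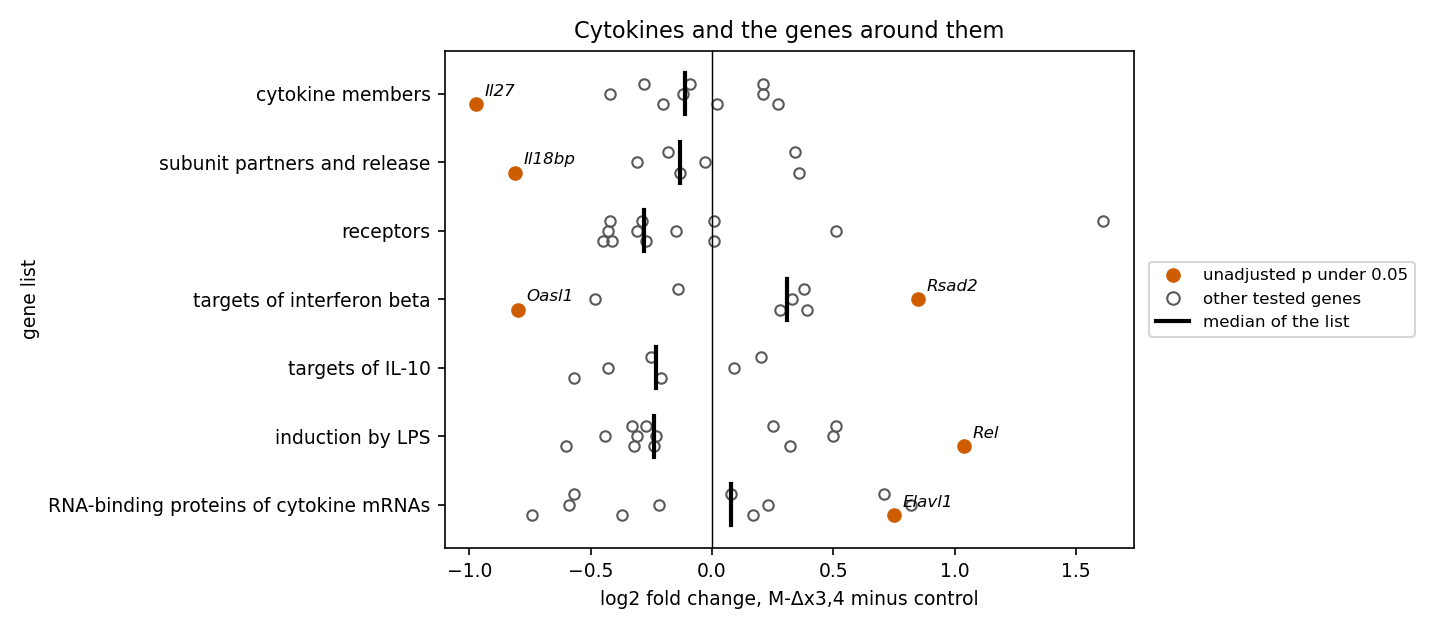
Log2 fold change, M-Δx3,4 minus control, of the 10 cytokines and of the tested genes of 6 lists, 1 point a gene. Orange points have an unadjusted p under 0.05 and black bars are list medians, which run from -0.28 for the receptors to 0.31 for the targets of interferon beta.

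The cultures carried the markers of macrophages, with all 8 of that list detected and a summed level of 6451.6 to 7034.1 normalized counts in control and 5413.5 to 7072.1 in M-Δx3,4 libraries. Of the B cell markers 5 of 6 were detected, at a sum of 299.9 to 358.5 in control and 141.8 to 164.3 in M-Δx3,4 libraries. Igkc, the immunoglobulin kappa constant region, carried most of it, with 223.2, 228.9 and 251.8 normalized counts in control and 83.1, 59.2 and 95.5 in M-Δx3,4 BMDMs, and it alone was lower at an unadjusted p under 0.05. Without Igkc the sums were 76.7 to 106.7 and 50.4 to 82.5 and overlapped. The groups did not overlap in 3 of the 6 markers, as in 8.44% of all genes. Besides Igkc these were Ighm, with a log2 fold change of -0.70 (95% interval -1.54 to 0.15), and Ms4a1. Ms4a1 had 2, 3 and 1 reads in the control and 0 in each M-Δx3,4 library, too few to be tested. Cd79b was higher, with a log2 fold change of 0.39, and its groups and those of the remaining markers overlapped. The part of these cells in any cytokine difference was not tested. Of the neutrophil markers 3 of 7 were detected, and Elane was at 0. Their sums were 168.5, 220.7 and 323.7 in control and 295.4, 284.5 and 162.0 in M-Δx3,4 libraries, and the groups overlapped. All 5 markers of T or NK cells were at 0, and those of dendritic cells, mast cells or basophils and fibroblasts summed to at most 39.5 in any library. In bulk samples of this kind fewer cells that make a cytokine and less of its mRNA in each cell cannot be told apart.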

How the data were processed

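BMDM cultures, 3 control and 3 M-Δx3,4, were profiled by QuantSeq 3′ mRNA sequencing (FWD) on an Ion Proton. The authors mapped the reads to mm10 with TopHat2 2.1.1 and then Bowtie2 (2.3.2 per the submitters' processing notes) and counted them with metaseqR2 on 3′ UTR regions of Ensembl transcripts. They deposited raw read counts per region, and TPM values that the authors derived from normalized counts and region length. The authors' own fold changes and p-values were left out, as were 18 further columns with values of single samples.

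Here counts were summed over the regions of each transcript, scaled by DESeq2's median of ratios in edgeR 4.0.16 (R 4.3.3), kept where 1 library or more exceeded the median normalized count, and compared by edgeR's quasi-likelihood test, with p-values adjusted by Benjamini-Hochberg over all 32475 transcripts. The threshold was an unadjusted edgeR p under 0.05 with a log2 fold change of 1 or more in size. The study put its limit on a p combined over several algorithms, so its calls rest on another quantity. Standard errors and 95% intervals come from the same fit. Single values were compared by exact permutation tests, and log2 ratios with a pseudocount of 1. Counting error covers read sampling only, and reads carry no molecular identifiers. The fit was tested on simulated data. The alternatives were TMM, library totals only, DESeq2 1.42.0, limma-voom (limma 3.58.1), other filters on low counts, 1 transcript per gene, a replicate block and leaving out each library.

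The members and the gene lists were chosen with earlier results of these data known. Named were all members, Hnrnpd, the list genes with an unadjusted p under 0.05, up to 4 of highest mean count in each list, and for each member with a mean above 50 the 2 genes of highest Pearson's r. Tnfrsf1a, Il2rg, Il12a, Il23a, Il1r1, Il2rb, Il1rap, Il12rb2, Il27ra, Socs3, Irf7, Khsrp and Zfp36l1 were named also for groups that did not overlap or for low counts, after their values were seen, as were Ifit2, Mx1, Igkc, Ighm, Ms4a1 and Cd79b. Sequences and coordinates of 3′ UTRs are from GENCODE on GRCm38, with no sequence beyond the annotated transcript ends.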

Additional observations from a re-analysis of the deposited data

How the results depend on the processing

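The number of transcripts past the threshold over the whole table was 1071. It was 704 by DESeq2, 1715 with no filter on low counts, 466 with edgeR's filterByExpr, 265 with at least 10 counts in every library and 364 with 1 transcript per gene, and with 1 library left out it lay between 710 (control replicate 3 absent) and 3224 (control replicate 1 absent). The number of cytokines past it was 0, and 0 to 1 with a library left out: Il27 passed without control replicate 1 and without control replicate 2. It was also 1 (Il27) with no minimum fold change. Of 145 fold changes of the cytokines under another setting, 126 kept their direction and their side of the threshold, 2 newly passed it (Il27, as above) and 17 turned in direction. By limma-voom Il1a was 0.11, Il1rn 0.03 and Il12b -0.16, and the unadjusted p of Il27 was 0.098. With all 6 libraries and no replicate block, the other fits gave Il27 log2 fold changes from -0.98 to -0.95, short of the threshold. Its unadjusted p in them was 0.0325 by DESeq2. By edgeR's quasi-likelihood test it ran from 0.0074 with no filter to 0.0463 with filterByExpr. With 1 library left out, Tnf ran from -0.03 to 0.41, Il1b from -0.46 to 0.05, Il1rn from -0.57 to 0.43, Il6 from -0.22 to 0.20, Il10 from -0.34 to 0.30, Il12b from -0.24 to 1.36, Il15 from -0.18 to 0.05, Il27 from -1.27 to -0.14, Ifnb1 from 0.04 to 0.47 and Il1a from -0.98 to -0.01. The differences of ratios ran from -0.07 to 0.49 for Il1rn to Il1b, from -1.0 to 1.02 for Il1a to Il1b, from -0.64 to 0.04 for Il10 to Tnf, from -0.39 to 0.11 for Il10 to Il6, from -0.42 to 0.28 for Il6 to Tnf and from -1.47 to -0.54 for Il27 to Ebi3, and a pseudocount of 5 turned none. The cause of these changes was not tested.

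No steady pairing of the samples by replicate number was seen: over 3527 genes the deviations of same-numbered libraries correlated at -0.15, 0.563 and -0.358. Such correlations, from deviations within groups of 3 libraries, cannot exclude a pairing. With the replicate number as a block, 685 transcripts passed the threshold and no cytokine did, Il1rn was 0.03 and the unadjusted p of Il27 was 0.085. The count of the AU-rich pentamer was 46 over the counted regions and 46 over the annotated 3′ UTRs. The alternatives for the 5 list genes were chosen after seeing the data. Beside the libraries left out, each had 9 other settings, of which 3 took the unadjusted p of Il18bp above 0.05 (library totals, no filter, replicate block), 1 that of Rsad2 (at least 10 counts) and 1 that of Oasl1 (replicate block), none turned a direction, and Rel and Elavl1 stayed under 0.05. Il1a and Il12b, with at most 9 reads in a library, were limited by depth.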
